A study of Bos taurus and Sus scrofa with 6 samples.

Results

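The genes of the FSH receptor (FSHR), anti-Müllerian hormone (AMH), the type 2 AMH receptor (AMHR2), the inhibin alpha subunit (INHA) and the inhibin and activin beta subunits A and B (INHBA and INHBB) were followed through single-cell RNA-sequencing of prepubertal testes. These 6 genes were taken by symbol, and all 6 are listed in both gene tables, among 19994 cattle genes and 22694 pig genes. The testes came by castration from 3 untreated Holstein bull calves, 4.5 months old, and from 3 untreated pigs of mixed breed, 3 months old, and each animal gave 1 library. Cells were freed with trypsin and collagenase, so cell types may be kept unequally. Breed, age and genome annotation go with species and cannot be told apart from it. A testis number is repeated in the labels of 2 libraries per species whose animal tags differ, and each library was counted as 1 animal because the study's methods give 3 males per species.

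FSH from the pituitary acts on Sertoli cells, the supporting cells of the seminiferous tubule, through FSHR, a receptor coupled to cAMP signalling. Sertoli cells secrete AMH, which causes the Müllerian ducts to regress in the male fetus and is made until puberty. They also secrete inhibin B, a dimer of the INHA and INHBB products that lowers FSH release, while dimers of beta subunits alone form the activins. Leydig cells, which lie between the tubules and make androgens, express the LH receptor and are known to carry INHA and AMHR2 in several mammals.

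The libraries held between 5805223 and 53325608 unique molecular identifiers (UMIs, counted molecules). After cell calling 17482 cattle cells and 9206 pig cells were kept, and the median cell had 789 to 4462 UMIs in cattle and 889 to 5878 in pig. The 6 genes and their signalling partners were left out of the clustering, and clusters were named from other markers. Sertoli-like cells numbered 505, 2367 and 1326 in cattle 1, 2 and 3 and 1164, 2315 and 209 in pig 1, 2 and 3, and Leydig-like cells numbered 994, 477 and 390 in cattle and 892, 84 and 86 in pig. Most Sertoli-like clusters came mainly from 1 library, with 76.0% to 86.0% of the cells of each cattle cluster and 51.4% to 98.8% of each pig cluster from its largest library. Of the Sertoli markers listed, 5 of 6 in cattle and 4 of 6 in pig had a higher level in the Sertoli-like cells of every animal than in its remaining cells. SOX8 had 0 UMIs in the Sertoli-like cells of both species, and AARD had 0 in pig. Of the Leydig markers listed, 5 of 6 in cattle and 4 of 5 in pig were higher in Leydig-like cells in all 3 animals, and the exception in both species was HSD17B3, which reached 473 to 758 counts per 1000000 UMIs (CPM) in pig Sertoli-like cells against 13.2 to 104 CPM in pig Leydig-like cells. The clusters were named from these marker lists, so such counts were partly set in advance and do not test the names. Some of the cattle Sertoli markers were also low. DHH was at 0.852 to 3.04 CPM and WT1 at 3.24 to 9.11 CPM in cattle Sertoli-like cells, against 304 to 574 CPM for CLDN11. In the Sertoli-like cells of cattle 1, 3 counts would be 4.55 CPM. Between 8 and 61 cell barcodes were shared by any 2 libraries.

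All 5 genes with counts in cattle were higher in Sertoli-like cells than in all other cells of the same animals. In pig 5 of 6 were higher, and AMH was the exception. Of all cattle genes tested, 13.6% were called higher and 19.3% lower. Of all pig genes tested, 10.2% were called higher and 15.5% lower (edgeR quasi-likelihood test on UMIs summed per animal, Benjamini-Hochberg adjusted p under 0.05). None of the 6 genes was called lower in either species. Among the genes tested the median log2 fold change was 3.88 for these 5 in cattle and 3.58 for the 6 in pig, against -0.16 and -0.18 over all genes tested. The classes were formed by clustering these same cells on other genes, and the p-values measure the spread between animals only.

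**Figure D1:**
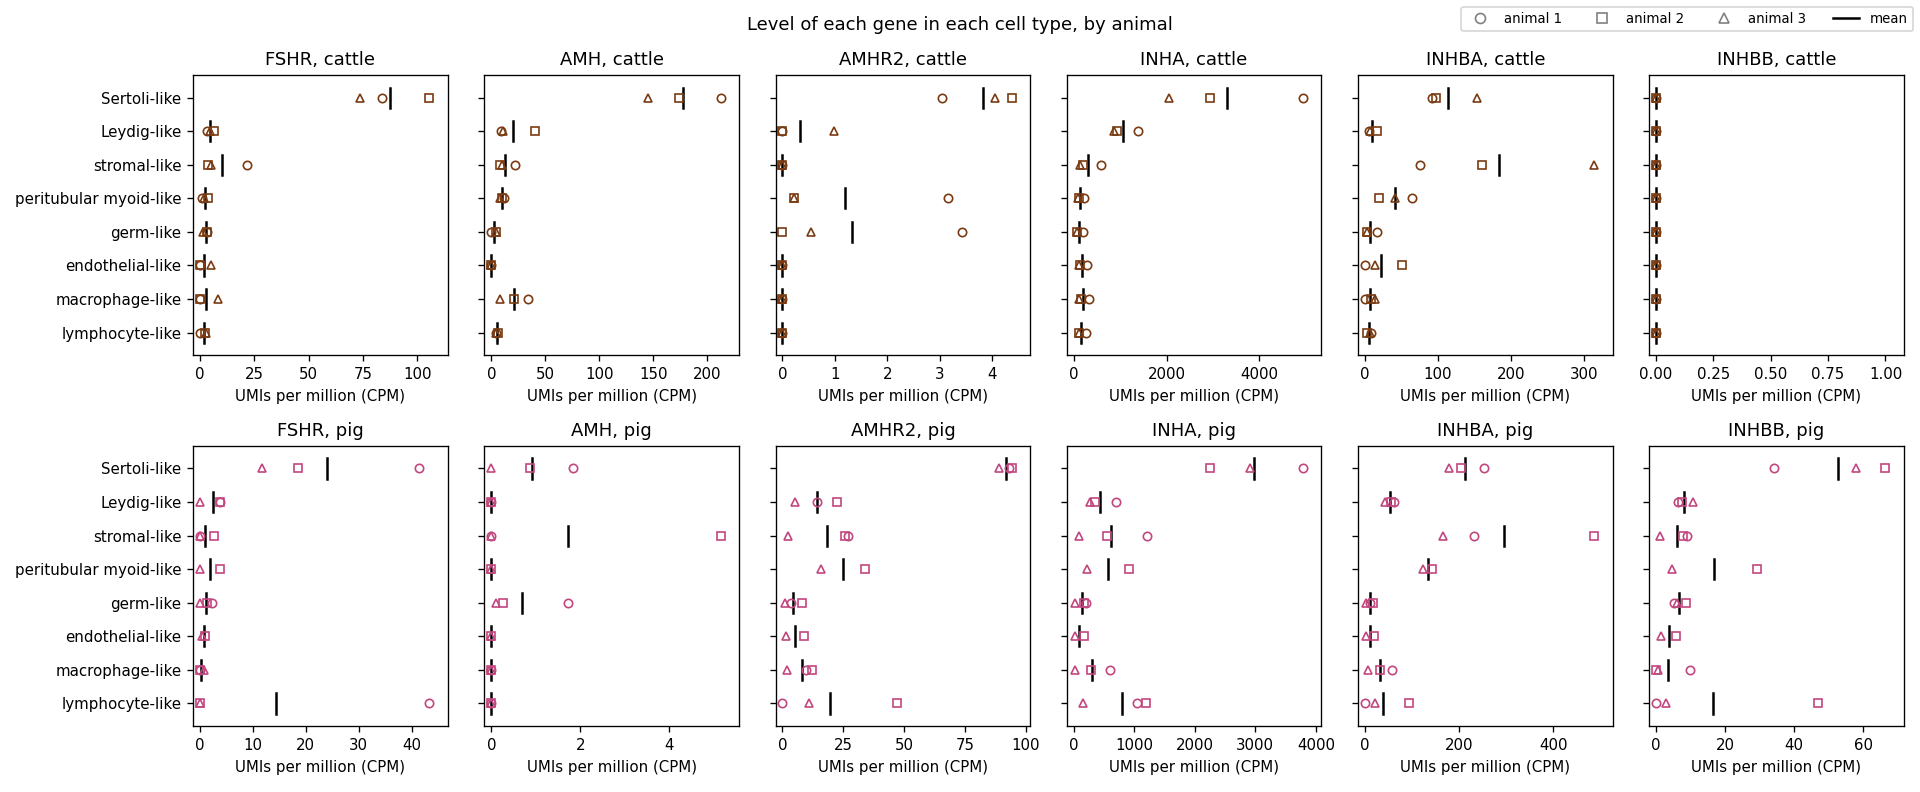
Level of each gene (CPM of the summed UMIs, linear axis that differs between panels) in each cell type of cattle (top) and pig (bottom); each symbol is 1 animal with at least 20 cells of the type and the bar is the mean. Sertoli-like cells lie apart from the other types drawn for FSHR, AMH and INHA in cattle and for AMHR2 and INHA in pig. INHBB in pig overlaps the lymphocyte-like cells of pig 2, INHBA is also high in stromal-like cells, and INHBB in cattle is 0 throughout. Unnamed clusters are not drawn.

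Within the kept cells, FSHR UMIs lay mainly in Sertoli-like cells. Its level was 83.5, 105 and 73.5 CPM in the Sertoli-like cells of cattle 1, 2 and 3 and 41.4, 18.6 and 11.8 CPM in those of pig 1, 2 and 3. In all other cells together it ranged from 2.61 to 3.53 CPM in cattle and from 0.102 to 3.36 CPM in pig, so the ranges did not overlap in either species. The log2 fold change was 5.23 ± 0.31 (SE, n = 3 animals) in cattle (edgeR adjusted p = 5.26e-05) and 4.38 ± 0.97 in pig (edgeR adjusted p = 0.0124). The pig call was lost without pig 2, which holds 191 of the 249 FSHR UMIs of pig Sertoli-like cells (log2 fold change 4.89, edgeR adjusted p = 0.082). Sertoli-like cells held 92.4% of the 1511 FSHR UMIs of the cattle cells and 88.9% of the 280 of the pig cells. All barcodes together, kept or not, held 2526 FSHR UMIs in cattle and 493 in pig.

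The share of cells with an FSHR UMI was low even in Sertoli-like cells. Thinned to 500 UMIs per cell, it was 3.50% to 4.99% in cattle and 0.557% to 1.92% in pig, and 10.1% to 37.8% and 3.61% to 7.65% without thinning. In cattle lymphocyte-like cells, taken as background, the thinned share was 0% to 0.159%. Free FSHR RNA was also found outside cells. The empty droplets, defined with INHA below, held FSHR at 28.6, 46.9 and 27.7 CPM in cattle 1, 2 and 3. In each animal this lay above all other cells together and below the Sertoli-like cells. The part of free RNA in the FSHR levels was not tested. Median depth was 1228 to 6272.5 UMIs in cattle Sertoli-like cells and 571 to 3545 in lymphocyte-like cells, and thinning left out 24 of the former and 80 of the latter. Pig lymphocyte-like cells were few, with 21, 21 and 67 cells, and a single FSHR UMI in pig 1 gave that type 43.4 CPM. Pig macrophage-like cells, with 106, 68 and 247 cells, had 0 to 0.682 CPM.

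AMH UMIs were plentiful in cattle and few in pig. In cattle its level was 212, 174 and 145 CPM in the Sertoli-like cells of animals 1, 2 and 3 and 7.60 to 11.2 CPM in all other cells. The log2 fold change was 4.61 ± 0.28 (n = 3 animals, edgeR adjusted p = 5.26e-05), and Sertoli-like cells held 88.9% of the 2904 AMH UMIs. The next cattle types, macrophage-like at 21.1 ± 12.8 CPM (SD, n = 3) and Leydig-like at 20.4 ± 17.8 CPM, overlapped each other and the stromal-like cells. After thinning, 6.0% to 11% of cattle Sertoli-like cells had an AMH UMI, against 0.213% to 0.352% of lymphocyte-like cells.

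In pig only 38 AMH UMIs were counted in all 79845812 UMIs deposited, and 18 of these in kept cells. The Sertoli-like cells of pig 1, 2 and 3 held 2, 9 and 0 of them, or 1.84 CPM (exact 95% Poisson interval 0.223 to 6.65), 0.877 CPM (0.401 to 1.66) and 0 CPM (upper limit from 3 counts 2.72). These intervals cover counting error only. All 3 pig Leydig-like sums had 0 AMH UMIs, which allows up to 3.84, 11.3 and 7.92 CPM. The log2 fold change of pig Sertoli-like cells, 1.92 ± 1.13 (n = 3 animals), was not called (edgeR adjusted p = 0.232). Of the other 7 AMH UMIs in pig cells, 5 lay in germ-like and 2 in stromal-like cells. The Sertoli markers differed widely in level in the same cells. CLDN11, a tight junction gene, was at 620 to 1382 CPM and SOX9, an activator of AMH, at 279 to 393 CPM. WT1 was at 49.7 to 133 CPM and DHH at 16.6 to 29.9 CPM, while SOX8 and AARD were at 0. The cause of the low AMH count in pig was not tested, and annotation cannot be told apart from species here.

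AMHR2 UMIs were few in cattle and plentiful in pig. In pig its level was 92.9, 94.2 and 88.8 CPM in the Sertoli-like cells of animals 1, 2 and 3, with 101, 967 and 98 UMIs. All other pig cells had 1.78 to 16.7 CPM, and the log2 fold change was 3.84 ± 0.65 (n = 3 animals, edgeR adjusted p = 0.00479). Among these other cells, 121 cells of pig 2 in an unnamed cluster had AMHR2 at 80.1 CPM, near its Sertoli-like cells. In cattle the level in Sertoli-like cells was 3.04, 4.37 and 4.05 CPM, from 2, 27 and 38 UMIs, against 0.0953 to 1.49 CPM in other cells. The 2 UMIs of cattle 1 lie below 3 counts, which would be 4.55 CPM. The cattle log2 fold change was 3.88 ± 0.83 (edgeR adjusted p = 0.00736), but the call was lost without cattle 2 (adjusted p = 0.135) and without cattle 3 (adjusted p = 0.143), and 1 UMI in cattle 1 gave germ-like cells a level of 3.42 CPM. Peritubular myoid-like cells had 3, 1 and 2 AMHR2 UMIs in cattle 1, 2 and 3. Those of cattle 1 were at 3.15 CPM, above its Sertoli-like cells. Stromal-like, endothelial-like, macrophage-like and lymphocyte-like cattle cells had 0 AMHR2 UMIs.

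In pig Leydig-like cells AMHR2 was at 14.1, 22.6 and 5.28 CPM, from 11, 6 and 2 UMIs. These levels overlapped those of stromal-like cells at 2.25 to 26.9 CPM and were 1.45 to 2.58 times those of macrophage-like cells of the same animal. Peritubular myoid-like cells were higher, at 33.8 CPM in pig 2 and 15.7 CPM in pig 3, and pig 1 had only 2 such cells. Lymphocyte-like cells had 0, 4 and 4 AMHR2 UMIs in pig 1, 2 and 3. The Leydig-like level was 0.481 times that of lymphocyte-like cells in pig 2 and 0.479 times in pig 3. In cattle the Leydig-like cells had 0, 0 and 2 AMHR2 UMIs. The pig Leydig-like levels lay below those of Sertoli-like cells, by 4.17 to 16.8 times within an animal, and above those of germ-like cells, at 0.848 to 8.11 CPM, in each pig.

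The region before the pig AMH gene is shown because AMH UMIs were nearly absent from pig Sertoli-like cells. AMH lies on pig chromosome 2 (Sscrofa11.1, RefSeq annotation) at chr2:76415564-76418315 on the plus strand with 5 exons, and its end is 193 bases from the end of JSRP1 on the other strand. FSHR lies at chr3:91607236-91775255 on the plus strand and is shown because its pig levels also lay below those of cattle. The sequences are the 250 bases before each annotated start, in the direction of the gene, at chr2:76415314-76415563 and chr3:91606986-91607235. Capitals mark the exact motif matches found on either strand. Variants of a motif were not searched, so lower case does not show that a factor has no site. The motifs searched were AGGTCA, the core bound by NR5A1, a regulator of steroidogenic genes and of AMH, and AGATAA, bound by GATA factors. Also searched were AACAAT, bound by SOX factors, and CACGTG, an E-box. The last were TGACG, the short cAMP response motif, and the full motif TGACGTCA, which contains it.
AMH: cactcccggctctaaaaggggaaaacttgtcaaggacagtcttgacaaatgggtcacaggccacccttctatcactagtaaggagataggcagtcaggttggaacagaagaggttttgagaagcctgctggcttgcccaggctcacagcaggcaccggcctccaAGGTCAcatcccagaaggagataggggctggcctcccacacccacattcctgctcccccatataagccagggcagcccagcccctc
FSHR: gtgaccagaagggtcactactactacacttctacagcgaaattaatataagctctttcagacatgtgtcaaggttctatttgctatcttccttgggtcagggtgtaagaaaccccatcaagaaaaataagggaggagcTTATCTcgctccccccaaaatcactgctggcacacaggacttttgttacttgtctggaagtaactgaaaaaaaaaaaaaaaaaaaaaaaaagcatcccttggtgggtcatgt
The AMH window holds AGGTCA, from base 86 to base 81 before the start. Of 19556 coding genes with a window of the same length, 12.2% hold AGGTCA, 8.08% AGATAA, 7.07% AACAAT, 19.6% TGACG, 1.7% TGACGTCA and 6.39% CACGTG. FSHR holds AGATAA on the other strand, from base 112 to base 107. These matches describe letters in the window and no binding was measured.

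INHA was abundant in the Sertoli-like cells of both species. Its level was 4942, 2943 and 2057 CPM in cattle 1, 2 and 3 and 3788, 2257 and 2912 CPM in pig 1, 2 and 3. In all other cells it was 172 to 678 CPM in cattle and 41.6 to 393 CPM in pig. These pig cells include an unnamed cluster, with 121 cells of pig 2, where INHA was at 1642 CPM. The log2 fold change was 3.52 ± 0.60 in cattle (n = 3 animals, edgeR adjusted p = 0.00245) and 3.88 ± 0.71 in pig (n = 3 animals, edgeR adjusted p = 0.00639). Thinned to 500 UMIs, 60.8% to 89.3% of cattle and 66.0% to 81.8% of pig Sertoli-like cells had an INHA UMI. The share was 4.84% to 12% in cattle lymphocyte-like cells. In pig it was 3.39% to 36.1% in lymphocyte-like, 1.44% to 20.05% in macrophage-like and 1.45% to 13.2% in germ-like cells, at median depths of 979 to 4544, 876.5 to 5249 and 3068.5 to 16964 UMIs.

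INHA UMIs were also found in every other cell type and outside cells. Empty droplets, here the cattle barcodes of no more than 50 UMIs, held INHA at 2064, 1360 and 834 CPM in animals 1, 2 and 3, and AMH at 39.4, 49.3 and 42.1 CPM. They held AMHR2 at 1.97, 1.83 and 2.41 CPM, from 2, 3 and 2 UMIs. No cattle cell type had INHA below 68.1 CPM. INHA UMIs were therefore also given per UMI of the Sertoli markers in the same cells, as a description. The part of free RNA in the levels outside Sertoli-like cells was not tested.

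Cattle Leydig-like cells had the most INHA after Sertoli-like cells. Their level was 1387, 940 and 877 CPM in cattle 1, 2 and 3, below the empty droplets in cattle 1 and 2. It was 5.20, 8.30 and 8.17 times that of lymphocyte-like cells of the same animal, and the ranges of the Leydig-like and stromal-like cells, the next type, did not overlap. INHA per Sertoli marker UMI was 55.8, 15.4 and 10.8 in the Leydig-like cells and 2.88, 1.62 and 1.15 in the Sertoli-like cells. In stromal-like cells it was 2.75, 1.67 and 1.11, in peritubular myoid-like cells 5.29, 1.67 and 1.15, and in lymphocyte-like cells 5.73, 1.47 and 1.19, so that in cattle 1 the last types lay above its Sertoli-like cells. In the cattle 1 Leydig-like cells the ratio rests on 25 marker UMIs, and in those of cattle 2 and 3 on 58 and 166.

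Pig Leydig-like cells showed INHA at 695, 358 and 275 CPM in pig 1, 2 and 3. Stromal-like cells had 1218, 549 and 80.0 CPM and lymphocyte-like cells 1041, 1187 and 149 CPM, so the ranges overlapped. INHA per Sertoli marker UMI was 3.69, 1.10 and 2.97 in Leydig-like against 3.92, 1.17 and 1.58 in Sertoli-like cells. The ratio was thus at or below that of Sertoli-like cells in 2 of 3 pigs. In the Leydig-like cells of pig 1, 2 and 3 it rests on 147, 86 and 35 marker UMIs. The marker UMIs come from partly different genes in the species. SOX9 is not listed in cattle, DEFB119 is not listed in pig, and AARD had 0 UMIs in pig Sertoli-like cells. Ratios are therefore not compared between species. Some pig types also held much Sertoli marker RNA, since these markers were at 832 CPM in peritubular myoid-like cells of pig 2, against 1934 CPM in its Sertoli-like cells, and at 564 and 917 CPM in the lymphocyte-like cells of pig 1 and 2. Their part in the pig levels outside Sertoli-like cells was not tested.

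**Figure D2:**
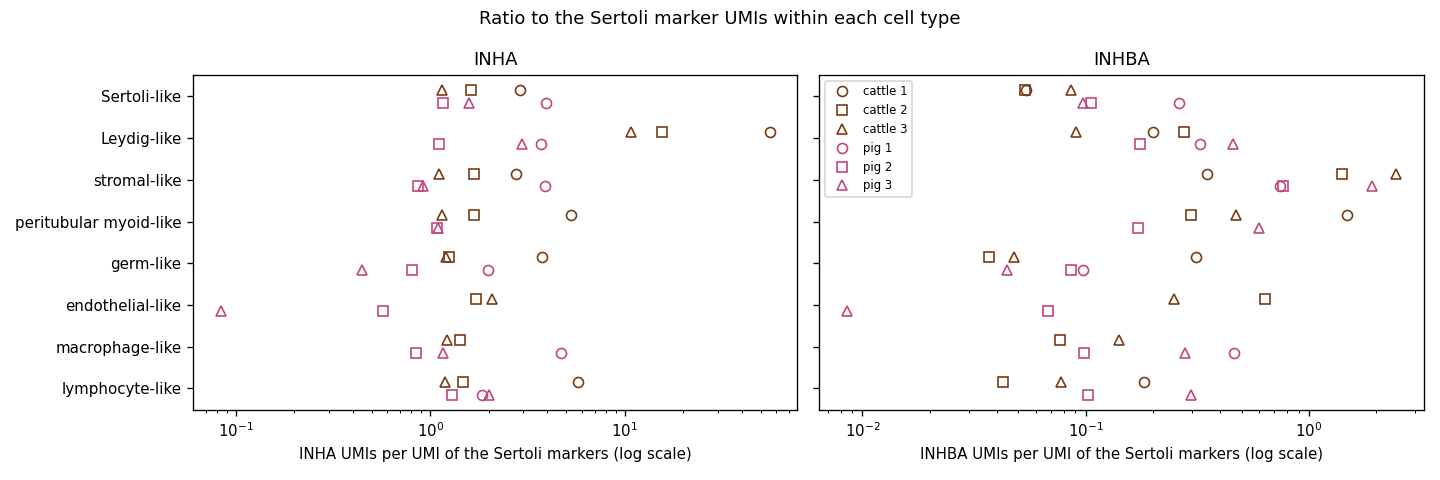
UMIs of INHA (left) and INHBA (right) per UMI of the Sertoli markers, log axes, for each cell type and animal with at least 10 marker UMIs and a ratio above 0. Cattle Leydig-like cells stand to the right of all other cattle types for INHA, at 10.8 to 55.8, and stromal-like cells stand to the right of Sertoli-like cells for INHBA in all 6 animals. The markers with counts differ between the species, so ratios can be read within a species only.

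INHBA levels of Sertoli-like and stromal-like cells overlapped in both species. In Sertoli-like cells its level was 92.6, 97.4 and 153 CPM in cattle 1, 2 and 3 and 254, 205 and 179 CPM in pig 1, 2 and 3. In stromal-like cells it was 75.6, 160 and 314 CPM in cattle, the first from 7 UMIs, and 233, 487 and 167 CPM in pig. The cattle clusters of this class were led by genes such as DCN and TCF21 except a dividing one, led by UBE2C and CENPF, that gave 49 of the 91 cells of cattle 1. The pig clusters were led by collagen genes, RGS5 or CXCL12. The stromal-like level was the higher in 2 of 3 cattle and in 1 of 3 pigs. INHBA per Sertoli marker UMI was 0.350, 1.41 and 2.47 in cattle stromal-like cells against 0.0539, 0.0537 and 0.0857 in Sertoli-like cells, and 0.743, 0.765 and 1.92 against 0.263, 0.106 and 0.0975 in pig.

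Within the stromal-like cells INHBA differed between clusters. In pig 2 and 3 a cluster led by COL1A2, PTN, COL3A1 and PENK was at 632 and 334 CPM, while one led by RGS5, COL1A2 and ACTA2 was at 129 and 53.7 CPM. Peritubular myoid-like cells, the contractile cells around the tubule, came next with 41.6 ± 22.2 CPM (SD, n = 3) in cattle and 133 ± 13.8 CPM (SD, n = 2) in pig. In cattle 1, 2 and 3 these cells had 64.1, 19.7 and 41.1 CPM. The empty droplets of the same animals held INHBA at 27.6, 39.0 and 79.5 CPM, the higher value in cattle 2 and 3. Cattle Leydig-like cells had 4.97, 16.8 and 7.35 CPM, within the range of germ-like cells.

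Against all other cells together, INHBA was higher in Sertoli-like cells by a log2 fold change of 1.63 ± 0.40 in cattle (n = 3 animals, edgeR adjusted p = 0.0132) and 2.95 ± 0.47 in pig (n = 3 animals, edgeR adjusted p = 0.0039). The cattle call was lost without cattle 2 (adjusted p = 0.112) and when every barcode with at least 500 UMIs was taken as a cell (adjusted p = 0.0782).

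INHBB had 0 UMIs in cattle, in cells and in all other barcodes, of 86540178 UMIs. In the Sertoli-like cells of cattle 1, 2 and 3 this allows up to 4.55, 0.486 and 0.319 CPM. In pig the level was 34.0, 66.5 and 58.0 CPM in Sertoli-like cells, from 37, 682 and 64 UMIs, against 4.12 to 11.5 CPM in all other cells. The log2 fold change was 3.33 ± 0.43 (n = 3 animals, edgeR adjusted p = 0.00233). Lymphocyte-like cells of pig 2 had 47.0 CPM from 4 UMIs in 21 cells, above the Sertoli-like cells of pig 1. Peritubular myoid-like cells had 29.1 CPM in pig 2 and 4.49 in pig 3, Leydig-like cells 6.40 to 10.6 CPM and germ-like cells 5.18 to 8.63 CPM, and these ranges overlapped. The cause of the 0 in cattle was not tested.

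**Figure D3:**
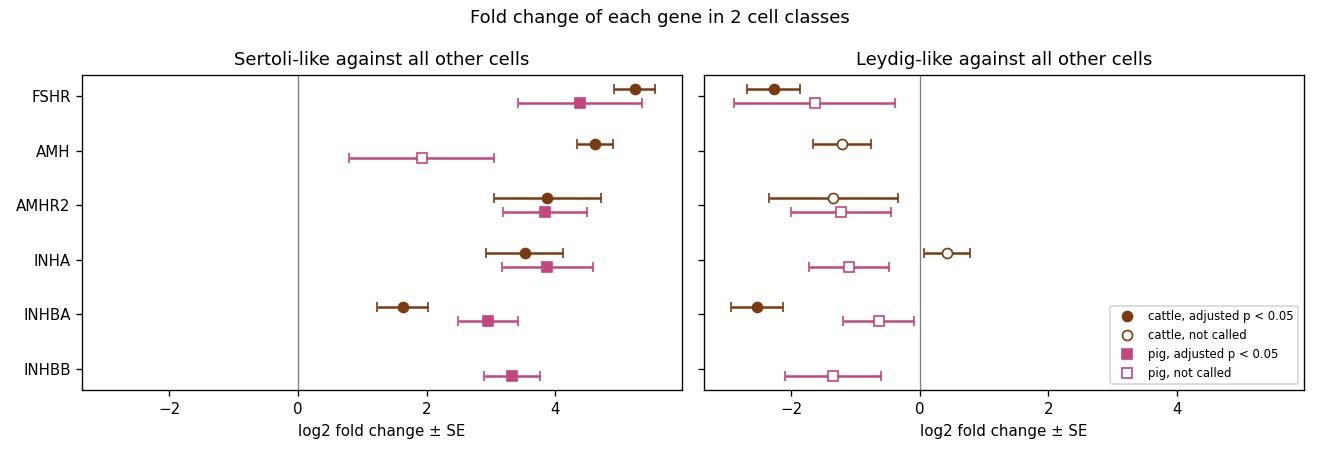
Log2 fold change with SE (n = 3 animals per species) of each gene in Sertoli-like (left) and Leydig-like (right) cells against all other cells; filled symbols passed an edgeR adjusted p of 0.05. INHBB in cattle, with 0 UMIs, and AMH in pig Leydig-like cells, also at 0, are not drawn.

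In Leydig-like cells 2 of the 5 genes tested in cattle were called lower and none of the 6 in pig. Among all cattle genes tested 5.99% were called higher and 9.17% lower. Among all pig genes tested these shares were 4.22% and 3.27%. In cattle FSHR was lower by a log2 fold change of -2.27 ± 0.41 (n = 3 animals, edgeR adjusted p = 0.00621) and INHBA by -2.53 ± 0.40 (n = 3 animals, edgeR adjusted p = 0.00336). The FSHR call was lost without cattle 2 (adjusted p = 0.0887). The other cells include the Sertoli-like cells, which hold 92.4% of the FSHR and 46.5% of the INHBA UMIs of cattle cells.

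With edgeR and the animal as a block, AMH was also called in cattle (log2 fold change -1.27, blocked edgeR adjusted p = 3.49e-07, against an edgeR adjusted p = 0.1 without the block) and INHA was called in pig (-0.78, blocked edgeR adjusted p = 0.0142, against an adjusted p = 0.297). The block also called more of all genes, with counts given under the processing alternatives below. Cattle INHA was not called, at 0.42 ± 0.36 (edgeR adjusted p = 0.458), and its sign turned to -0.13 when libraries were scaled by size alone. None of the 6 genes was called higher in Leydig-like cells in either species.

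The levels in Sertoli-like cells were compared between the species with a two-sided exact permutation test over animals, which with 3 against 3 cannot give a p below 0.1, so none could pass 0.05. The FSHR mean in pig was 23.9 ± 15.5 against 87.5 ± 16.4 CPM in cattle (SD, n = 3 each, exact p = 0.1). For AMH the pig mean was 0.906 ± 0.920 against 177 ± 33.6 CPM (n = 3 each, exact p = 0.1). For AMHR2 it was 92.0 ± 2.8 against 3.82 ± 0.70 CPM (n = 3 each, exact p = 0.1), a ratio of 24.1. For INHBA it was 213 ± 37.9 against 114 ± 33.6 CPM (n = 3 each, exact p = 0.1), and for INHBB it was 52.8 ± 16.8 against 0 CPM (n = 3 each, exact p = 0.1). For these 5 genes the animals of the species did not overlap, and the exact p adjusted over the 6 genes was 0.12. The share of all genes without overlap between the species was not computed, so this is not read as a trait of these genes. The INHA ranges overlapped, with 2986 ± 768 against 3314 ± 1478 CPM (n = 3 each, exact p = 0.8).

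**Figure D4:**
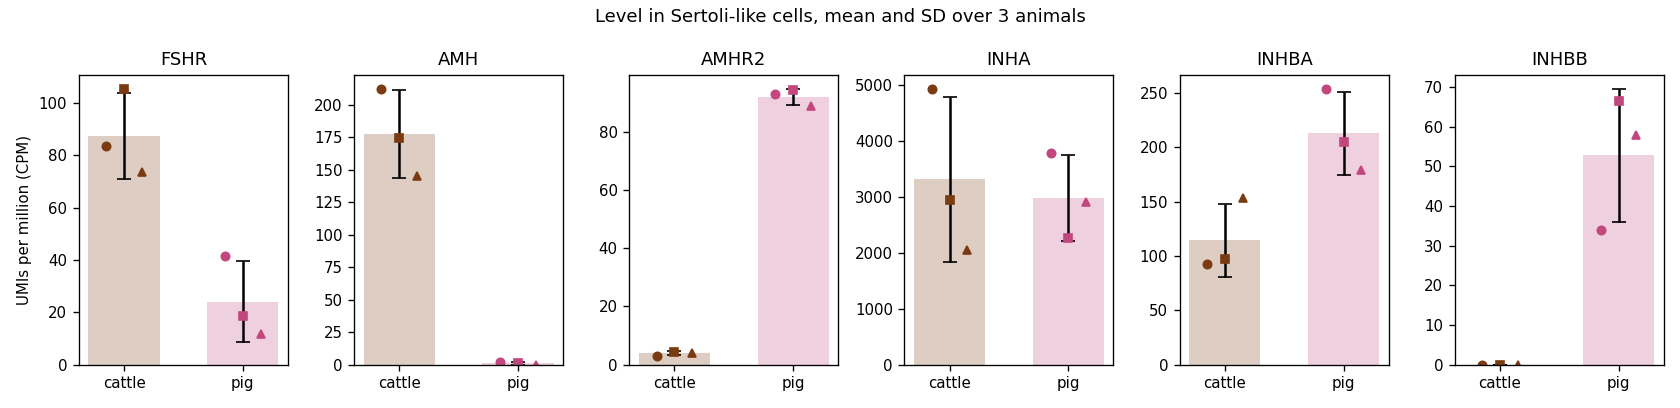
Level of each gene in Sertoli-like cells (CPM, axis from 0, scale differs between panels), with the mean as a bar, the SD as an error bar and each of the 3 animals per species as a symbol. AMH is near 0 in pig, AMHR2 is near 0 in cattle, INHBB is 0 in cattle, and the INHA values of the species overlap.

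The difference between the species in the Sertoli-like effect itself, which sets each gene against the other cells of its own species, was not called for any of the 5 genes with counts in both. Of all genes tested 11.8% were called. AMH differed by a log2 of -2.50 ± 0.99 (pig minus cattle, edgeR adjusted p = 0.12) and INHBA by 1.34 ± 0.61 (edgeR adjusted p = 0.182). With the animal as a block both were called, AMH at -3.02 ± 0.83 (blocked edgeR adjusted p = 0.00342) and INHBA at 1.44 ± 0.31 (blocked edgeR adjusted p = 0.000184). The 11.8% is the share without the block, which raised the number called among all genes too. Those counts are given with the processing alternatives below. The other cells differ in make-up between the species. Peritubular myoid-like cells were a mean of 32.2% of the kept cells in cattle and 4.09% in pig. Stromal-like cells were 13.3% and 4.81%, and the INHBA levels of both types are given above. The part of this make-up in the differences was not tested. FSHR at -0.80 ± 0.98, AMHR2 at -0.19 ± 0.82 and INHA at 0.37 ± 0.90 were not called with or without the block.

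Within Sertoli-like cells the levels differed between clusters of the same animal. In cattle a cluster led by ARHGAP36 and CLDN11 held 23, 105 and 784 cells of animals 1, 2 and 3, and one led by SPINLW1, AARD and FATE1 among named genes held 34, 81 and 440. INHBA was at 171, 98.7 and 179 CPM in the former and at 25.2, 64.0 and 57.6 CPM in the latter, lower in all 3 animals, where 25.2 CPM in cattle 1 is a single UMI. The remaining clusters lay at 67.9, 113 and 103 CPM and, for one led by the same AARD, SPINLW1 and FATE1, at 97.8, 86.0 and 159 CPM. AMH had no common direction, with 76.1, 110 and 164 CPM in the former and 252, 122 and 54.3 CPM in the latter. FSHR was at 76.1, 107 and 75.0 CPM against 75.6, 89.6 and 73.7 CPM. In pig a cluster led by the cell division genes UBE2C, TOP2A and CENPF held 50 cells of pig 1 and 55 of pig 2. AMHR2 was at 86.8 CPM in those of pig 2, against 89.5 CPM in its main cluster, and had a single UMI in those of pig 1, too few to compare. These clusters were drawn from the same cells, and their values are a description.

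Signalling partners of the 6 genes were read from the same fits, over a list of 45 genes of which 36 were tested in cattle and 38 in pig. In Sertoli-like cells of cattle 5 of the 36 were called higher and 9 lower, beside 13.6% and 19.3% of all genes tested. In those of pig 8 of the 38 were called higher and 5 lower, beside 10.2% and 15.5%. The median log2 fold change of the list was -0.06 in cattle and 0.44 in pig. Among the activin binding proteins FSTL3, which binds activins, was higher in both species while FST, follistatin, was lower.

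FSTL3 had a mean of 53.1 CPM in cattle Sertoli-like cells against 5.11 CPM in other cells, a log2 fold change of 3.76 ± 0.35 (edgeR adjusted p = 0.000133), and in pig 109 against 18.6 CPM, or 2.97 ± 0.51 (edgeR adjusted p = 0.00506). FST was at 0.0540 against 2.03 CPM in cattle, -4.31 ± 1.02 (edgeR adjusted p = 0.0114), and at 0.0974 against 3.77 CPM in pig, -3.56 ± 0.92 (edgeR adjusted p = 0.0221). Both Sertoli-like means lie below the lowest floor of 3 counts, 0.319 CPM in cattle 3 and 0.292 CPM in pig 2. The size of these FST fold changes is therefore uncertain. IGSF1, a membrane protein linked to FSH and inhibin signalling, was higher by 4.03 ± 0.71 in cattle (edgeR adjusted p = 0.00284) and 2.39 ± 0.76 in pig (edgeR adjusted p = 0.0459). TGFBR3, betaglycan, the co-receptor through which inhibin blocks activin, was at 5.20 CPM in pig Sertoli-like cells against 88.9 CPM in other cells, -3.59 ± 0.44 (edgeR adjusted p = 0.00224). In cattle TGFBR3 was also called lower, at -1.91 ± 0.43 (edgeR adjusted p = 0.0089). TGFBR3L, its homologue known as an inhibin B co-receptor, was called higher in pig (3.65 ± 0.88, edgeR adjusted p = 0.0175) at a mean of 0.836 CPM against 0.0549 CPM in other cells. This Sertoli-like mean lies below the floors of 3 counts in pig 1 and pig 3, 2.76 and 2.72 CPM. The TGFBR3L call therefore rests on few UMIs, and the size of its fold change is uncertain.

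Of the regulators of AMH, GATA4 was higher in Sertoli-like cells of both species, by 1.83 ± 0.34 in cattle (edgeR adjusted p = 0.0038) and 2.84 ± 0.43 in pig (edgeR adjusted p = 0.00329). The mean GATA4 level in Sertoli-like cells was 87.0 CPM in cattle and 119 CPM in pig. NR5A1 was called higher in Leydig-like cells of both species, with 4.35 CPM in cattle (2.96 ± 0.83, edgeR adjusted p = 0.0384) and 106 CPM in pig (2.98 ± 0.47, edgeR adjusted p = 0.00332). Among SMADs and their direct targets, ID1 was lower in Sertoli-like cells of both species, by -2.64 ± 0.51 in cattle (edgeR adjusted p = 0.00447) and -2.16 ± 0.70 in pig (edgeR adjusted p = 0.0477). ID3 was lower in cattle at -3.41 ± 0.27 (edgeR adjusted p = 8.86e-05), as was SMAD9 at -3.46 ± 0.72 (edgeR adjusted p = 0.00644). The SMAD9 mean in cattle Sertoli-like cells, 0.287 CPM, lies below the lowest floor of 3 counts, 0.319 CPM in cattle 3. The size of the SMAD9 fold change is therefore uncertain. In pig neither ID3 nor SMAD9 was called. SMAD2, at 1.70 ± 0.32 (edgeR adjusted p = 0.00723), and SMAD3, at 2.375 ± 0.356 (edgeR adjusted p = 0.0033), were called higher there. These 2 were named after the values were seen. Of the FSH receptor pathway, PRKACB, a catalytic subunit of protein kinase A, was called higher and CREM, a cAMP-responsive transcription factor, was called lower in both, a pair named after the values were seen.

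Of the FSH-responsive Sertoli genes 1 of 5 tested was called higher in cattle Sertoli-like cells (13.6% of all genes tested) and 1 of 4 lower in pig (15.5%). KITLG, the ligand of KIT on germ cells, was higher in cattle Sertoli-like cells by 2.95 ± 0.77 (edgeR adjusted p = 0.0174) at 1.12 CPM. This mean lies below the floor of 3 counts in cattle 1, 4.55 CPM. CYP19A1, aromatase, which converts androgens to oestrogens, was lower in pig Sertoli-like cells by -3.06 ± 0.69 (edgeR adjusted p = 0.0136). Its mean there was 4.09 CPM, against 37.2 CPM in other cells, which include the Leydig-like cells. In pig Leydig-like cells CYP19A1 was higher by 7.14 ± 0.66 (edgeR adjusted p = 0.000127), with 605 CPM against 4.53 CPM in all cells outside that class. The Sertoli-like mean thus lies near that of all cells outside the Leydig-like class. TF, transferrin, was higher in cattle Leydig-like cells by 4.54 ± 0.44 (edgeR adjusted p = 0.000409), at 489 CPM. For the whole list 5 genes were called higher and 4 lower in cattle Leydig-like cells, beside 5.99% and 9.17% of all genes tested. In those of pig 6 were called higher and 3 lower, beside 4.22% and 3.27%. ID2 and ID3 were lower in both species, ID3 by -2.91 ± 0.38 in cattle (edgeR adjusted p = 0.00119) and -2.80 ± 0.60 in pig (edgeR adjusted p = 0.0173), and ID2 by -2.49 ± 0.29 (edgeR adjusted p = 0.000725) and -2.42 ± 0.48 (edgeR adjusted p = 0.0117). The activin subunits INHBC and INHBE had too few counts to be tested, and the single gonadotropin subunit tested in each species was not called.

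**Figure D5:**
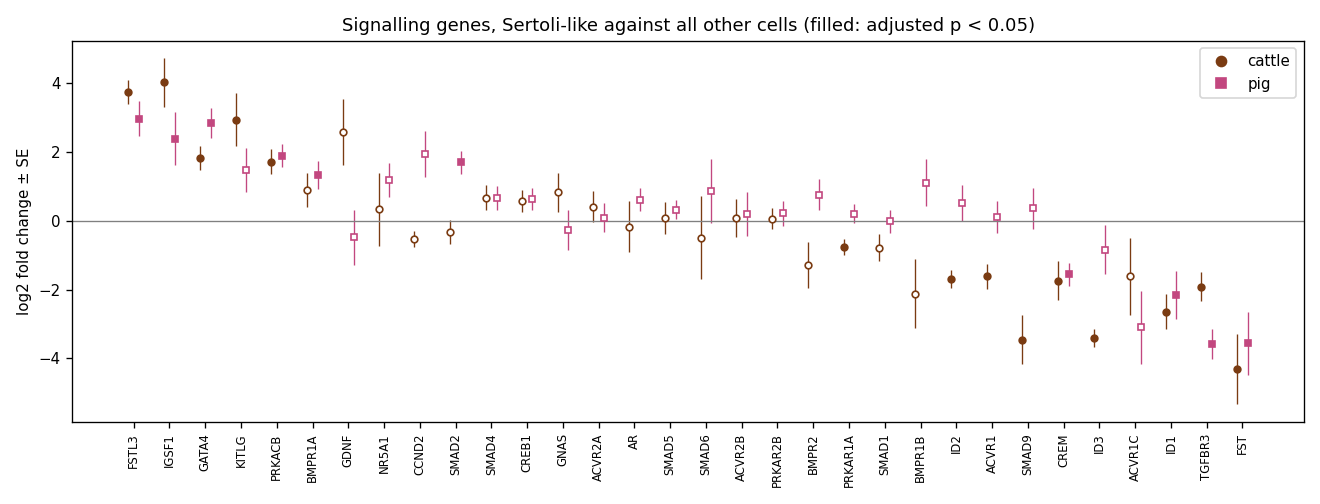
Log2 fold change with SE of the 32 signalling genes tested in both species, Sertoli-like against all other cells, ordered by the mean of the species; filled symbols passed an edgeR adjusted p of 0.05. FSTL3, IGSF1 and GATA4 lie to the positive side and FST, TGFBR3 and ID1 to the negative side in both species, all called.

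The genes most like each of the 6 were found by Pearson's r of log2(CPM + 1) over the sums of an animal and a cell type, 24 sums in cattle and 22 in pig, which share libraries and depth. In cattle FSHR was nearest to PRND (r = 0.912), ACSBG1 (0.881) and FSTL3 (0.880), and AMH to FRMPD1 (0.893), SLC39A4 (0.891) and SPOCK2 (0.864). INHA was nearest to TNNI3 (0.930), GPAA1 (0.903) and PCCB (0.886), and INHBA to MOSPD1 (0.845), P3H3 (0.841) and KIAA0408 (0.825). In cattle the nearest gene to AMHR2 was NDRG4 (0.735), followed by CUBN (0.725) and the unnamed gene ENSBTAG00000017628 (0.719).

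In pig AMHR2 was nearest to ACSBG1 (0.979), C14orf180 (0.944) and CNTN3 (0.931), so ACSBG1, an acyl-CoA synthetase, stood near FSHR in cattle and AMHR2 in pig. INHA was nearest to the unnamed gene ENSSSCG00000007123 (0.990), CLU (0.987) and HSD17B3 (0.963). INHBA was nearest to LTBP3 (0.939), which binds latent TGF-beta, SDC4 (0.925) and CHPF (0.914). INHBB was nearest to CCK (0.914), BEND6 (0.891) and DDR1 (0.875), and FSHR to NWD2 (0.797), DHH (0.746) and the unnamed gene ENSSSCG00000033906 (0.739). AMH had too few UMIs in pig and INHBB none in cattle.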

How the data were processed

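Single cells of 6 testes (3 animals per species) were sequenced as 10x libraries. The deposited values are raw UMI counts per gene and barcode, made by the authors with Cell Ranger (2.1.0 per the submitters' processing notes, 3.0.2 per the pig file headers) on ARS-UCD1.2 for cattle and Sscrofa11.1 for pig. The cattle files list all barcodes and the pig files only those with at least 500 UMIs, so free RNA could be read in empty droplets in cattle only.

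Barcodes over a UMI threshold set from the top 3000 of each library (in the manner of Cell Ranger) and with at least 200 detected genes were kept, less those with the highest Scrublet doublet scores (0.8% per 1000 cells), and clustered (scanpy 1.11.5, 2000 variable genes, 30 components, 15 neighbours, resolution 1) without the 6 genes and their signalling list, and named from markers. The naming rule was set after the clusters had been seen, and HSD17B3 was dropped as a pig Leydig marker after the data had been seen. Of a library's cells 0.755% to 23.1% stayed unnamed. UMIs were summed per animal and class and tested with edgeR 4.0.16 (quasi-likelihood, TMM, genes with at least 10 counts, Benjamini-Hochberg, threshold 0.05). Shares of cells used cells thinned to 500 UMIs. Intervals are exact, at 95%, and floors are 3 counts, and both cover counting error only. The alternatives were DESeq2 1.42.0, library-size scaling, no count filter, other cell calls and resolutions, each animal left out, the animal as a block and, added after seeing the data, unnamed cells left out. The 2 sums compared come from the same animal and deviated together (r = 0.2154 to 0.4444 over 12 pairs), so the block pairs them by animal.

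The 6 genes and all lists were chosen with earlier results of these data known. Genes of the signalling list were named by the largest fold changes past the threshold, 4 each way in Sertoli-like and 2 each way in Leydig-like cells, and the 3 genes most like each member by r among genes with a mean of at least 5 CPM. The tests were run on simulated counts drawn independently for each sum. That simulation had no pairing by animal, so it does not check the tests on paired sums. Promoter sequences and pig positions are RefSeq's on Sscrofa11.1. No cattle genome was used here. The promoters of the other 4 genes are not reported here.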

Additional observations from a re-analysis of the deposited data

How the results depend on the processing

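The Sertoli-like calls of FSHR, AMH and INHA in cattle and of AMHR2, INHA, INHBA and INHBB in pig kept their direction and their side of the threshold under every alternative run. The cause of each change listed here was not tested, and fewer animals cannot be told apart from the particular animal left out. With an animal left out, the log2 fold change ranged from 2.96 to 4.85 for AMHR2 in cattle Sertoli-like cells (call lost without cattle 2 or cattle 3), from 1.56 to 1.76 for INHBA in the same cells (lost without cattle 2), from 3.99 to 4.89 for FSHR in pig Sertoli-like cells (lost without pig 2) and from -2.43 to -2.03 for FSHR in cattle Leydig-like cells (lost without cattle 2). INHBA in cattle Sertoli-like cells also lost its call with all barcodes of at least 500 UMIs (1.10). AMH in cattle Leydig-like cells was called under library-size scaling (-1.68), all barcodes of at least 500 UMIs (-1.39), resolution 0.5 (-1.40), resolution 2 (-1.83) and the block, and cattle Leydig-like INHA turned to -0.13 under library-size scaling.

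With the animal as a replicate block, which pairs the sums of an animal, AMH in cattle Leydig-like cells was at -1.27, INHA in pig Leydig-like cells at -0.78, and the species differences of AMH and INHBA at -3.02 and 1.44, all called, and the block changed no other call of the 6 genes. It moved the genes called in Sertoli-like cells from 4685 to 7931 (cattle) and 3910 to 6552 (pig), in Leydig-like cells from 2154 to 4703 (cattle) and 1139 to 3495 (pig), and for the difference between species from 1512 to 3352. The genes tested numbered 14202 in cattle, 15216 in pig and 12839 for the difference, so calls with the block were common among all genes.

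With an animal left out these counts lay between 1222 and 6251, 434 and 3424, 321 and 2837, 216 and 788, and 581 and 1566, in the same order. The lowest counts came without cattle 2, pig 3, cattle 2, pig 1 and cattle 3. Other settings gave 3334 genes in cattle Leydig-like cells (library-size scaling), 2225 in pig Sertoli-like cells (all barcodes of at least 500 UMIs), and in pig Leydig-like cells 1842 (DESeq2), 1871 (no count filter), 536 (all barcodes of at least 500 UMIs), 753 (at least 500 genes per cell) and 749 (resolution 0.5).

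The species difference in the Sertoli-like effect of AMH was called under DESeq2 (-2.48) and ranged from -3.17, called without pig 3, to -2.03 with an animal left out. The uncalled differences had no fixed sign. AMHR2 was at 0.20 under DESeq2 and 0.028 without unnamed cells, an alternative chosen after seeing the data, and ranged from -1.03 to 0.73 with an animal left out. FSHR was at 0.29 with no doublets left out. INHA was at -0.20 with all barcodes of at least 500 UMIs and ranged from -0.43 to 0.72 with an animal left out. The INHA level of pig minus cattle ranged from -956 to 486 CPM with an animal left out, and the pig AMHR2 level was 86.6 CPM with at least 500 genes per cell. The tests of AMH in pig rest on 18 UMIs and those of AMHR2 in cattle on 78, and AMH in pig could not be fitted without pig 2.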
